A study of Mus musculus with 6 samples.

Results

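The AP-1 family was examined as 10 genes, *Fos*, *Fosb*, *Fosl1*, *Fosl2*, *Jun*, *Junb*, *Jund*, *Atf3*, *Batf3* and *Maff*, which were chosen by name among the 24016 genes of the table. All 10 had a row and all 10 entered the test, since the filter on low values removed no gene. The data were RNA-seq libraries of MC3T3-E1 subclone 4, a preosteoblast line derived from mouse calvaria and labelled wild type, so every culture shares the genome of 1 cell line. All cultures were differentiated for 6 days with ascorbic acid (50 µg/ml) and β-glycerophosphate (10 mM). Corticosterone, the chief glucocorticoid of the mouse, or its vehicle was then given for 24 h, the hormone at 100 nM, and the protocol lists 10 nM calcitriol as present during the treatment. The 2 groups held 3 libraries each, described as biological replicates, and the labels do not say whether the cultures were independent passages. A single time point was taken, so the values describe RNA levels after a day and not the first hours of the response, nor whether the levels were still changing.

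AP-1 is a dimeric transcription factor made of basic leucine zipper proteins. Jun proteins pair with each other or with Fos proteins, whereas Fos proteins need a Jun partner to bind DNA, and the dimers recognise the TRE and CRE elements. *Fos*, *Fosb*, *Jun*, *Junb* and *Atf3* are immediate-early genes that growth factors and stress induce within minutes, while *Fosl1* and *Fosl2*, which encode Fra-1 and Fra-2, follow later and last longer. In bone, Fra-1, Fra-2 and ΔFosB are known to support osteoblast matrix production, and the ligand-bound glucocorticoid receptor is known to bind Jun and Fos proteins and restrain them without a change in their RNA. RNA levels therefore say nothing on AP-1 activity.

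Corticosterone was followed by small changes in opposite directions within the family. *Fosl2* RNA was lower by 18.6% and *Jun* and *Fosl1* RNA were higher by 17.7% and 17.2%, each with vehicle and corticosterone libraries that did not overlap. These 3 genes had an adjusted p under 0.05 (limma, Benjamini-Hochberg over 24016 genes). The other 7 members did not, and no member passed the threshold of the study, which adds an absolute log2 fold change over 1. Higher calls by the adjusted p were 2 of 10 members against 8.49% of all genes, and lower calls were 1 of 10 against 8.2%. Past the threshold with the fold, the share of all genes was 1.38% higher and 1.4% lower, and the members' count was 0, with 5 members at an unadjusted p under 0.05, which 26.3% of all genes and 40.4% of the 13880 genes with a mean of at least 10 had. The same fold threshold left 0 members by edgeR and by DESeq2 on the recovered reads. Groups that did not overlap were seen for 2 members in the higher and 1 in the lower direction, against 14.7% and 14.9% of all genes. With 10 members these counts are not read as a result about the family, and the values below stand as those of single genes.

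Libraries held 19076586 to 25638645 reads on genes with vehicle and 16020401 to 18992332 with corticosterone. Every vehicle library was thus deeper than every corticosterone library. Values are given as normalized counts, that is reads divided by 1 size factor per library, and 3 reads correspond to 2.32 to 3.84 of them. *Tsc22d3*, the glucocorticoid-induced leucine zipper and a receptor target, rose from 511 ± 30.6 to 1438 ± 93.3 normalized counts (SD, n = 3; log2 fold change 1.49, limma adjusted p 9.52e-11), in the direction the labels give. All 7 osteoblast markers examined were expressed, with summed levels of 1258210 to 1302350 in vehicle and 1062930 to 1116980 in corticosterone libraries. All 7 were lower by the adjusted p, against 8.2% of all genes. *Col1a1* and *Col1a2* made up most of these sums, and their means differed by -9.94% and -21.5%. The differences were larger for *Runx2* (-55.1%), *Sp7* (-60.6%), *Alpl* (-25.2%), *Bglap* (-72.6%) and *Ibsp* (-56.1%). Of the macrophage, endothelial and adipocyte markers, 2 of 4, 1 of 3 and 1 of 3 had a row, with summed levels of at most 62.4, 7.30 and 2.56 normalized counts in any library. *Ptprc*, *Adgre1*, *Cdh5*, *Kdr* and *Adipoq* had none. Of 3 chondrocyte markers 2 had a row, *Col2a1* and *Sox9*, whose sum was 3478 to 3899 with vehicle and 2874 to 2929 with corticosterone. Fewer cells of a type and less RNA per cell cannot be told apart in such bulk samples, and the part of these shifts in the AP-1 values was not tested.

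**Figure D1:**
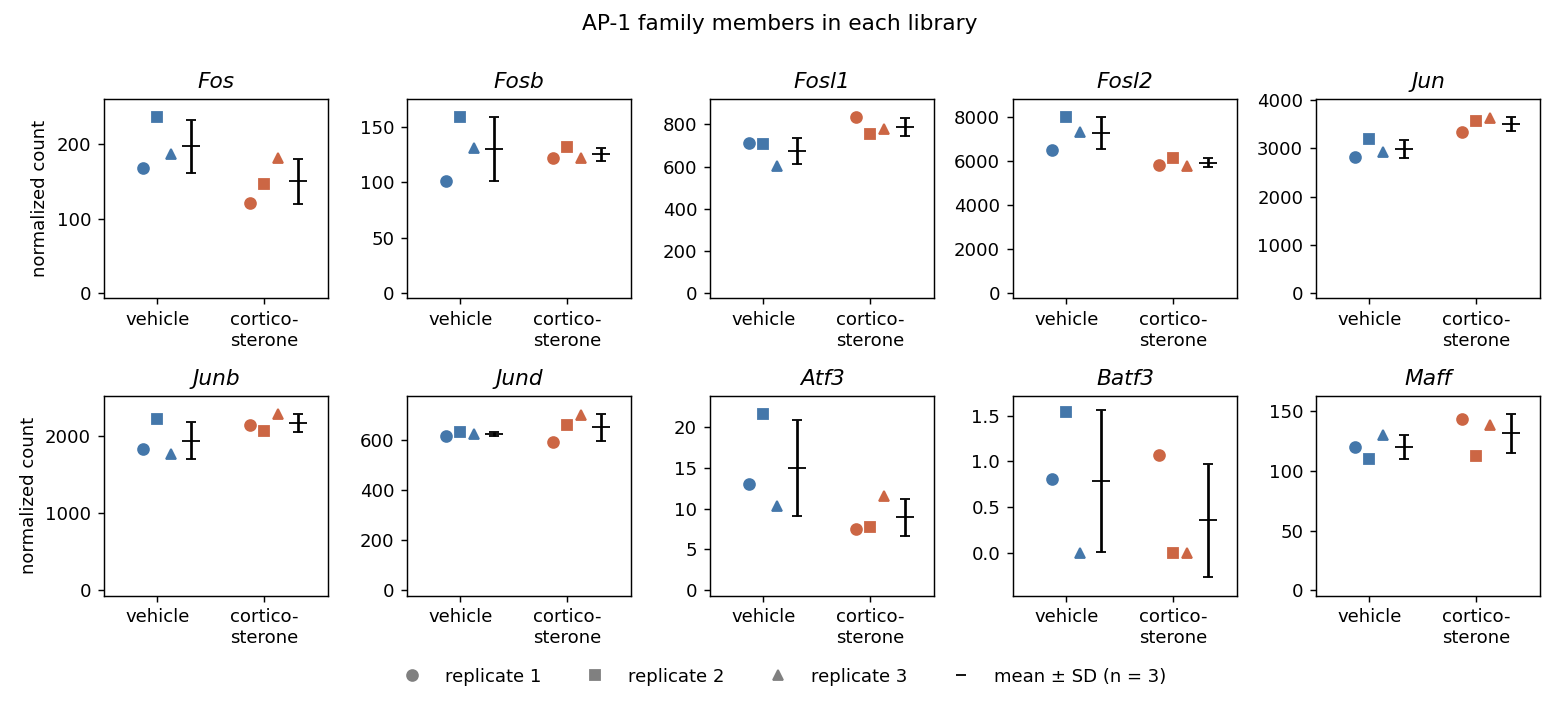
Normalized count of each AP-1 member (y axis, scaled for each gene with 0 included) in the 3 vehicle (blue) and 3 corticosterone (orange) libraries. Symbols mark replicates 1 to 3 and black bars the mean ± SD. All 3 corticosterone points lie below vehicle for Fosl2 and above it for Jun and Fosl1, and the groups overlap in the other 7 panels.

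*Fosl2* encodes Fra-2, a Fos protein without the strong transactivation domain of c-Fos. The gene lies on chr5:32135801-32157842 of GRCm38, on the plus strand. It had 6509.8, 7990.7 and 7339.8 normalized counts in vehicle replicates 1 to 3 and 5834.0, 6148.6 and 5786.3 in corticosterone replicates 1 to 3. The highest corticosterone library stayed under the lowest vehicle library. The log2 fold change was -0.29 (SE 0.06, 95% interval -0.42 to -0.17, limma adjusted p 0.00175), and the two-sided exact permutation p of 0.1 is the smallest that 3 against 3 can give. The adjusted p was 0.0749 without vehicle replicate 3 and 0.0609 without corticosterone replicate 3, with log2 fold changes of -0.28 and -0.28.

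*Jun* encodes c-Jun, 1 of the Jun proteins with which Fos proteins pair. It is a gene of 1 exon on chr4:95049034-95052222 of GRCm38, on the minus strand. Vehicle libraries held 2824.3, 3181.4 and 2927.2 normalized counts and corticosterone libraries 3337.2, 3555.3 and 3624.2. Every corticosterone library exceeded every vehicle library. This was a log2 fold change of 0.24 (SE 0.05, 95% interval 0.13 to 0.34, limma adjusted p 0.00319; exact permutation p 0.1). Leaving out vehicle replicate 3 gave an adjusted p of 0.0687 and leaving out corticosterone replicate 3 gave 0.0583. The antisense gene *Junos* shares 232 exonic bases with *Jun*, had 29 to 73 reads per library and did not pass the test (log2 fold change 0.23, limma adjusted p 0.696).

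*Jun* and *Fosl2* were the members with the clearest changes, and they moved in opposite directions, so the bases just before their RefSeq start sites are shown. Each run holds the 250 bases before the start, read 5′ to 3′ on the gene's strand (GRCm38.p6, RefSeq). The third run is 1 of the 3 annotated starts of *Maff*, the only member whose windows held a full CRE. Capitals mark the motif that was found, TGACATCA, the known Jun-type TRE of the *Jun* promoter, in the first run and TGACGTCA, the CRE, in the third.
Jun, chr4:95052223-95052472, minus strand: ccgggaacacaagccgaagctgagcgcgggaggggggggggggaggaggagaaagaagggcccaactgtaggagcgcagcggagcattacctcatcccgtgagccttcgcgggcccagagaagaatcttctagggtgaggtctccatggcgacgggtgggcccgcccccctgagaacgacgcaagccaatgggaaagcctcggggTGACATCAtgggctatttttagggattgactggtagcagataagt
Fosl2, chr5:32136222-32136471, plus strand: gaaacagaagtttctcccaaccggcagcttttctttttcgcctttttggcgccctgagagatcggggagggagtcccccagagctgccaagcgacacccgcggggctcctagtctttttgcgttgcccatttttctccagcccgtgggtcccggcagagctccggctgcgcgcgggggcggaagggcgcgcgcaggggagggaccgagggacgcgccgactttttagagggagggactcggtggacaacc
Maff, chr15:79347270-79347519, plus strand: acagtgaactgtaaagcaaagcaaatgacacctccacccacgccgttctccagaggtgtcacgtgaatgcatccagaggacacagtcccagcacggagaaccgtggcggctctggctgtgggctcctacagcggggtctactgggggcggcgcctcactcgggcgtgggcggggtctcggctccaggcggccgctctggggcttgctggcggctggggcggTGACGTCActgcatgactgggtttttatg

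The search covered windows from 250 bases before to 50 after the start, on both strands. RefSeq held such windows for 9 of the 10 members, 11 windows in all, and none was given for *Fosl1*. The Jun-type TRE, TGACATCA, began 45 bases before the start in the *Jun* window and 45 bases before another *Maff* start, and it was present in 3.62% of 32851 windows of all genes. The CRE, TGACGTCA, began 29 bases before the *Maff* start shown and was present in 1.79% of windows. The classical TRE, TGAGTCA, stood in none of the member windows and in 5.20% of all. The receptor half-site AGAACA was read as its reverse TGTTCT at 1 *Maff* start, against 19.0% of all windows, and the CArG box, to which serum response factor binds, was in none, against 1.63%. The windows of *Fos*, *Fosb*, *Fosl2*, *Junb*, *Jund*, *Atf3* and *Batf3* held none of the 5 motifs. The *Jund* window, chr8:70697489-70697788, ended before the GENCODE start of the gene at 70698949. The bases around that start were therefore not searched. Sites further than 250 bases before a start, a CArG box among them, could not be found by this search. These are matches of letters in short windows and describe no binding.

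*Fosl1* encodes Fra-1 and lies on chr19:5447547-5455946 of GRCm38, on the plus strand. It had 711.1, 707.0 and 604.1 normalized counts with vehicle and 837.2, 755.5 and 776.5 with corticosterone. The groups did not overlap, although the gap between 711.1 and 755.5 was small beside the vehicle spread of 60.7 (SD). The fitted log2 fold change was 0.23 (SE 0.07, 95% interval 0.08 to 0.38, limma adjusted p 0.0363; exact permutation p 0.1). This call was the least stable of the 3, as the adjusted p was under 0.05 with only 1 of the 6 libraries left out in turn and ranged from 0.048 to 0.203. Without vehicle replicate 1, vehicle replicate 3 or corticosterone replicates 1, 2 and 3 it was 0.0521, 0.203, 0.196, 0.0673 and 0.133.

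*Fosl1* also shares 1163 exonic bases with *Ccdc85b* on the other strand, and 54.5% of its 31-base words occur in that gene's transcripts. Whether the counting used the strand is not given in the sources used here. *Ccdc85b* went the opposite way, from 1591 ± 26.8 to 1317 ± 63.3 normalized counts (log2 fold change -0.27, limma adjusted p 0.00101). Reads of the 2 genes may not be told apart, so the value of *Fosl1* is uncertain.

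*Fos*, the founding member, lies on chr12:85473890-85477273 of GRCm38, on the plus strand. It was counted at 167.9, 236.9 and 187.2 with vehicle and at 121.0, 146.9 and 181.7 with corticosterone. The highest corticosterone library exceeded the lowest vehicle library, and the groups overlapped. The log2 fold change of -0.40 (SE 0.15, 95% interval -0.72 to -0.08) had an unadjusted limma p of 0.0180 and a limma adjusted p of 0.090. This fold change was -0.26 without vehicle replicate 2 and -0.26 without corticosterone replicate 1. It was -0.51 without vehicle replicate 1 and -0.55 without corticosterone replicate 3. *Fos* varied more within treatments than 98.6% of the 10558 genes with a mean of at least 100, at a within-treatment SD of 0.27 on the log2 scale against a median of 0.08. Those genes were not matched to *Fos* for level, and most of the rank may come from counting error, which was not tested.

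*Fosb*, whose shorter splice form ΔFosB cannot be separated from the full form in a table of genes, was nearly level in its means, with 130 ± 28.8 in vehicle and 125 ± 5.57 in corticosterone libraries (SD, n = 3). The vehicle libraries spread from 101 to 159 and enclosed the corticosterone values of 122, 131 and 122. The log2 fold change was -0.04 with a 95% interval of -0.36 to 0.29 (limma adjusted p 0.936). In the same comparison, again not matched for level, *Fosb* varied more than 97.5% of the genes with a mean of at least 100.

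*Junb*, a Jun protein that can restrain c-Jun and that is needed in osteoblast precursors, lies on chr8:84974484-84978718 of GRCm38. Its values were 1828.5, 2212.0 and 1768.7 with vehicle and 2144.5, 2065.4 and 2284.8 with corticosterone. Vehicle replicate 2 alone lay among the corticosterone libraries. The log2 fold change was 0.17 (SE 0.07, 95% interval 0.02 to 0.32, limma adjusted p 0.133), and without vehicle replicate 2 it was 0.27 with an adjusted p of 0.00537. It was 0.11 without vehicle replicate 3 (0.539) and 0.30 with a correction for GC content and length together with the replicate block (0.0131), and a robust prior variance also gave a call (0.0181). *Junb* shares 173 exonic bases with *Prdx2* on the other strand, a more abundant gene at 4134 ± 61.0 and 3953 ± 104 normalized counts, which did not pass the test (limma adjusted p 0.358).

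*Jund*, the Jun protein found in most resting cells, had 617.1, 634.4 and 624.7 normalized counts with vehicle and 594.2, 659.4 and 701.1 with corticosterone. The vehicle libraries lay within the corticosterone range. A log2 fold change of 0.06 was fitted (95% interval -0.09 to 0.20, limma adjusted p 0.679). The same correction and block gave 0.28 with an adjusted p of 0.0212, leaving out 1 library in turn gave 0.001 to 0.12, and *Jund* is the member with the highest GC content, 67.1%. *Gm11175* on the other strand, which has no row in the table, covers 877 of its exonic bases and holds 50.1% of its 31-base words, so the value of *Jund* is uncertain too.

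The smaller members were near the lower end of detection or did not differ. *Maff*, a small Maf protein without a transactivation domain, had 120.0, 110.4 and 130.3 with vehicle and 143.5, 112.7 and 138.2 with corticosterone, and the log2 fold change of 0.12 had an interval of -0.16 to 0.41 (limma adjusted p 0.655). *Atf3*, a stress-induced partner of Jun proteins, was read 16, 28 and 10 times in vehicle and 7, 7 and 9 times in corticosterone libraries, that is 13.0, 21.6 and 10.3 against 7.49, 7.73 and 11.5 normalized counts. Its log2 fold change of -0.70 had an interval of -1.72 to 0.32 (limma adjusted p 0.409), so a fall past the fold threshold and a small rise both lay within it. It was -0.40 without vehicle replicate 2 and -0.93 without vehicle replicate 3, and that of *Maff* ran from 0.06 to 0.23 with 1 library left out. *Batf3*, known for its part in dendritic cell development, had 1, 2 and 0 reads with vehicle and 1, 0 and 0 with corticosterone. Both groups were under 3 reads in every library, so no fold is given.

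**Figure D2:**
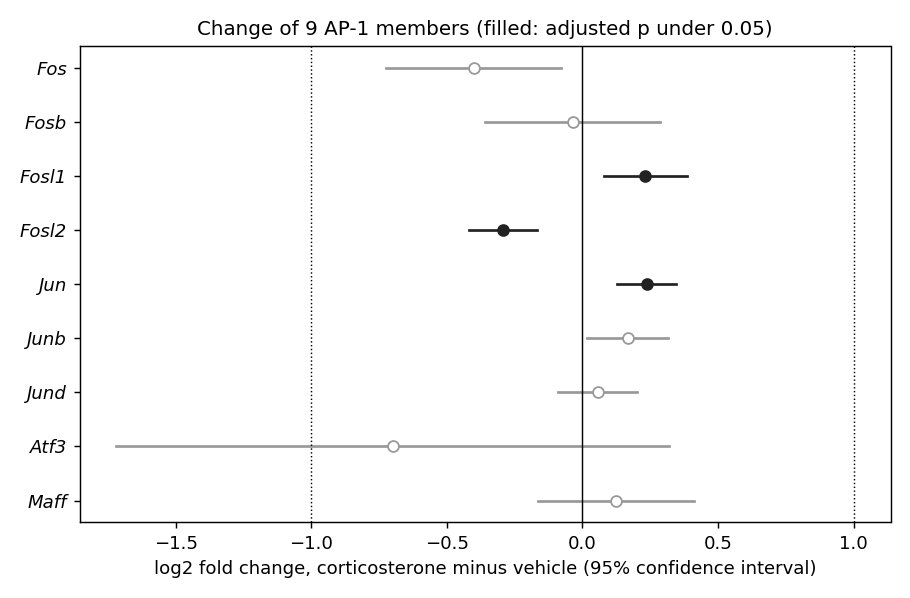
Log2 fold change of corticosterone against vehicle (x axis) for the 9 members with more than 3 reads, with 95% confidence intervals from limma. Filled points have an adjusted p under 0.05, and dotted lines mark a log2 fold change of -1 and 1. Fosl2 lies at -0.29, Jun at 0.24 and Fosl1 at 0.23, and no point lies beyond the dotted lines.

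To compare levels between genes, reads were divided by the length of the longest annotated transcript and scaled to the same total in each library (TPM). In vehicle libraries the order was *Fosl2* at 123 ± 6.85 TPM, *Junb* at 118 ± 8.64, *Jun* at 103 ± 0.79, *Jund* at 41.6 ± 1.69, *Fosl1* at 40.1 ± 3.81, *Fos* at 10.3 ± 1.28, *Maff* at 6.82 ± 0.85, *Fosb* at 3.79 ± 0.65, *Atf3* at 0.83 ± 0.28 and *Batf3* at 0.076 ± 0.073 (SD, n = 3). Neighbours in this order overlapped in their libraries for *Fosl2* and *Junb* and for *Jund* and *Fosl1*. With corticosterone the order began with *Junb* at 128 ± 9.35 TPM, *Jun* at 118 ± 6.17 and *Fosl2* at 96.8 ± 1.46, followed by *Fosl1* at 45.3 ± 2.83, *Jund* at 41.8 ± 3.92 and *Fos* at 7.61 ± 1.66. There *Junb* and *Jun* overlapped, as did *Fosl1* and *Jund* and also *Fos* and *Maff*, while *Fosl2* lay below every *Jun* value.

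Summed TPM of the 4 Fos-family genes were 172, 183 and 177 with vehicle and 153, 152 and 155 with corticosterone. The means differed by -13.5%, and the groups did not overlap. Within this sum *Fosl2* went from 123 to 96.8 TPM, *Fos* from 10.3 to 7.61 and *Fosb* from 3.79 to 3.53. *Fosl1*, whose value is uncertain, went up from 40.1 to 45.3. The lower sum is thus mostly that of *Fosl2* and not a shift shared by the 4 genes. Summed TPM of the 3 Jun-family genes were 262, 271 and 256 with vehicle and 277, 277 and 308 with corticosterone, which is 9.23% higher in the mean and again without overlap. The size of these differences depends on the measure. Summed normalized counts, which have no length correction, differed by -15.6% for the Fos family and by 14.1% for the Jun family. For all 10 members they differed by -3.63%, with overlapping groups. Summed TPM of all 10 members were 448 ± 11.4 with vehicle and 448 ± 20.1 with corticosterone, so by TPM the whole was level while its makeup differed. *Fosl2* made up 26.1%, 27.6% and 28.7% of it with vehicle and 21.8%, 22.6% and 20.5% with corticosterone. *Jun* made up 23.2%, 22.5% and 23.5% and then 25.5%, 26.8% and 26.3%.

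These shares depend on the lengths assumed. With the union of all exons, which makes *Fosl2* longer, its mean share was 22.2% with vehicle and 17.2% with corticosterone, and that of *Jun* was 27.5% and 30.8%. The first place of *Fosl2* with vehicle therefore rests on the transcript length, and also on vehicle replicate 3, since *Junb* was higher in replicate 1 (117 against 115 TPM) and level with it in replicate 2 (127 and 127), whereas its lower share with corticosterone was present with either length.

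**Figure D3:**
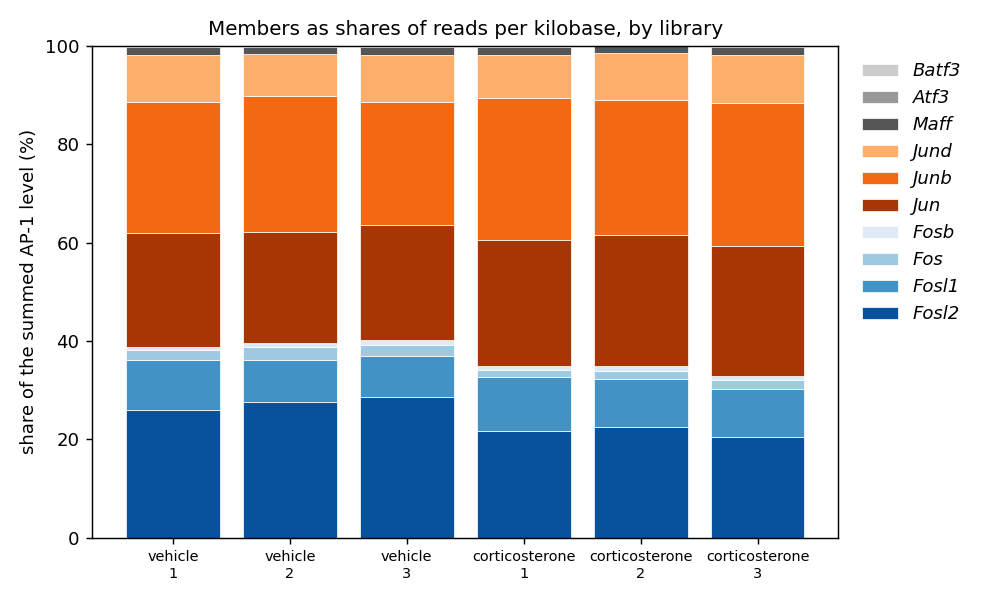
Share of each member in the summed TPM of the 10 AP-1 genes (y axis, percent) in each of the 6 libraries (x axis), with Fos-family genes in blue, Jun-family genes in orange and the others in grey. The dark blue block of Fosl2 takes 26.1% to 28.7% with vehicle and 20.5% to 22.6% with corticosterone.

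Ratios of normalized counts within a library do not depend on the size factor. The ratio of *Jun* to *Fosl2* was 0.434, 0.398 and 0.399 with vehicle and 0.572, 0.578 and 0.626 with corticosterone. The means were 0.410 and 0.592, with SDs of 0.0204 and 0.0297. *Jun* was higher and *Fosl2* lower in every corticosterone library than in every vehicle library. Separate groups of this ratio were therefore fixed in advance, so the ratio adds no support and no test of it is given. The ratios of *Junb*, *Jund* and *Fosl1* to *Fosl2* were also higher in every corticosterone library than in every vehicle library, and the ratio of *Fos* to *Jun* was lower, at 0.0660 ± 0.0077 and 0.0426 ± 0.0070. The ratios were chosen after the values of the members were seen, and those to *Fosl2* share its values. Separation of the ratio of *Fosl1* to *Fosl2* was likewise fixed by the separation of both genes.

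Among vehicle libraries, replicate 2 held the highest value for 8 of the 10 members. It stood 20.1% above the vehicle mean for *Fos*, 22.1% for *Fosb*, 14.2% for *Junb* and 44.3% for *Atf3*, and only for *Maff* was it the lowest, at -8.21%. Of 18 other immediate-early genes, 14 were highest in the same library, against 35.5% of the 10558 genes with a mean of at least 100. Corticosterone replicate 3 was the highest of its group for 5 of 10 members and for 40.1% of those 10558 genes. Without vehicle replicate 2, *Fosl2* had a log2 fold change of -0.22 (limma adjusted p 0.0154), *Jun* of 0.29 (0.00174) and *Fosl1* of 0.27 (0.048), *Junb* was called as given above, and *Fosb* changed sign to 0.12 (0.692).

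**Figure D4:**
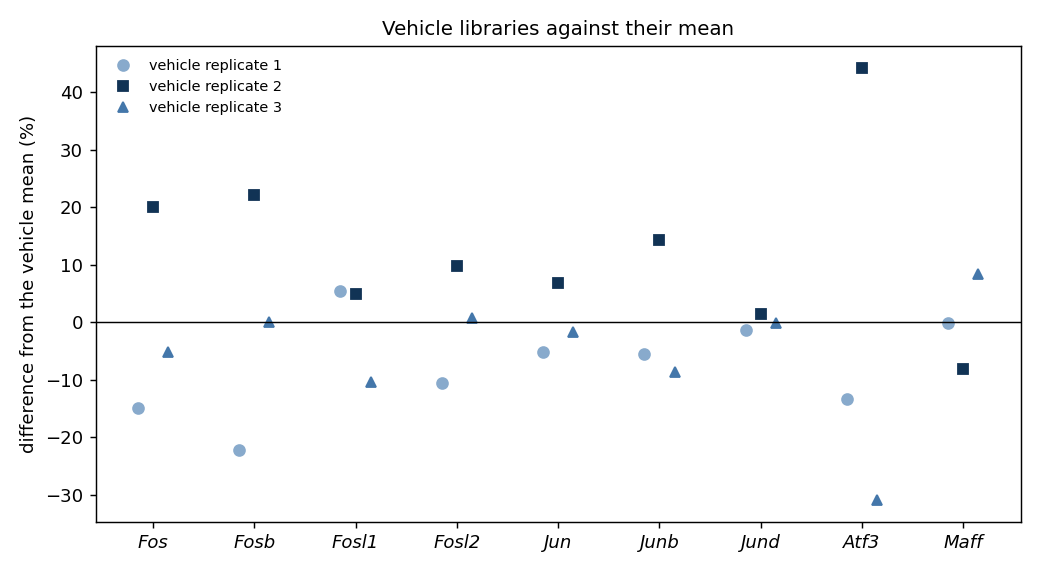
Difference of each vehicle library from the vehicle mean (y axis, percent of the mean normalized count) for 9 members (x axis). Squares mark vehicle replicate 2, which is the highest for 7 of these 9 genes, with 44.3% for Atf3 and 1.44% for Jund.

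The 3 genes whose values were most like those of *Fosl2* over the 6 libraries, among 10550 genes with a mean of at least 100, were *Socs7* (Pearson r 0.995), *Jak1* (r 0.995) and *Ptpn14* (r 0.992). Each was highest in vehicle replicate 2, lowest of the vehicle group in replicate 1 and below vehicle in all 3 corticosterone libraries, as *Fosl2* was. *Jak1*, a cytokine receptor kinase, went from 3499 ± 247 to 3083 ± 34.2 normalized counts. The 6 points fall into 2 treatment groups, so the r is a description of likeness only.

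Other bZIP proteins that pair with AP-1 members were examined as a list of 11 genes, of which 8 had a row. By the limma adjusted p, 8.49% of all genes were higher and 8.2% lower. Of the 13880 genes with a mean of at least 10, 1970 were higher and 1869 lower. Of the 8 partners, 3 were higher, 2 lower and 3 did not pass. Their median log2 fold change was 0.17 against -0.01 over all genes. *Mafa*, a large Maf factor best known from pancreatic beta cells, was the only one past the fold threshold and went from 87.6, 72.6 and 101 normalized counts to 20.3, 40.9 and 55.0 (log2 fold change -1.27, SE 0.29, limma adjusted p 0.00522). The 3 higher genes, named after their values were seen, were the small Maf factors *Mafk* (log2 fold change 0.46) and *Mafg* (0.25) and *Jdp2* (0.30), a Jun dimerization protein that represses AP-1 sites.

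Of 18 MAP kinases and their upstream kinases, which phosphorylate Jun and Fos proteins, 3 were higher, 3 lower and 12 did not pass the adjusted p. None passed the fold threshold. Over all genes 8.49% were called higher and 8.2% lower. An unadjusted p under 0.05 was seen for 12 of the 18, against the 40.4% given above for the 13880 better expressed genes. The smallest adjusted p were those of *Map3k7*, the kinase TAK1, from 3681 ± 42.0 to 4392 ± 205 normalized counts (log2 fold change 0.25, limma adjusted p 4.47e-04), of *Map2k6*, an activator of p38, from 120 ± 14.9 to 68.4 ± 4.62 (-0.80, 0.00116), and of *Map3k5*, the stress kinase ASK1, from 83.3 ± 12.2 to 138 ± 13.3 (0.73, 0.00191). *Map2k6* and *Map3k5* feed the same p38 branch and moved in opposite directions. RNA of the Jun kinases *Mapk8* and *Mapk9* did not pass the test, at log2 fold changes of -0.18 (95% interval -0.35 to -0.01) and -0.11 (-0.22 to 0.00).

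Regulators that drive *Fos* and *Jun* transcription gave 2 higher, 2 lower and 8 that did not pass among 12 genes. The shares over all genes were 8.49% higher and 8.2% lower. The median log2 fold change of the 12 was -0.06. *Mrtfa*, an actin-sensing coactivator of serum response factor, stood out with 4365, 3993 and 4077 normalized counts with vehicle and 8376, 7958 and 8406 with corticosterone (log2 fold change 0.99, SE 0.04, 95% interval 0.90 to 1.09, limma adjusted p 9.95e-11), just short of the fold threshold. *Elk4*, a ternary complex factor at the same element, was lower (log2 fold change -0.28, limma adjusted p 0.0101), and *Atf1*, a CRE-binding factor, was higher (0.19, 0.0252). *Srf* itself had a log2 fold change of 0.12 (95% interval 0.01 to 0.24) and did not pass the adjusted p.

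Genes known as AP-1 targets held single changes of larger size, in both directions. Of 18 with a row among 20, 3 were higher and 6 lower by the adjusted p, against 8.49% and 8.2% of all genes. Past the fold threshold were 1 of the higher and 2 of the lower genes, against 1.38% and 1.4% of all genes. The median log2 fold change was -0.16. *Mmp9*, a gelatinase, fell from 2733 ± 196 to 1037 ± 82.3 normalized counts (log2 fold change -1.40, limma adjusted p 1.33e-10). *Ccl2*, a monocyte chemoattractant, fell from 53.2 ± 15.3 to 12.0 ± 3.02 (-2.12, 2.11e-04). *Mmp13*, the collagenase whose AP-1 site is a textbook case in osteoblasts and which is named here outside the rule for named genes, had 2543, 3176 and 2993 with vehicle and 3242, 3497 and 2808 with corticosterone, with overlapping groups (0.13, limma adjusted p 0.327). Many of these genes answer to other factors as well, the receptor among them, so their values carry no reading of AP-1.

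The other immediate-early genes held single changes larger than any of the AP-1 members. Of 18, 5 were higher and 8 lower by the adjusted p, against 8.49% and 8.2% of all genes. Past the fold threshold there were 2 in each direction, against 1.38% higher and 1.4% lower of all genes. The median log2 fold change was -0.25 and the median absolute value 0.49. For the 9 AP-1 members above the floor the same medians were 0.06 and 0.23. *Egr2* and *Egr3*, zinc finger factors induced through serum response elements, as *Fos* is, fell from 634 ± 101 to 151 ± 21.6 normalized counts (log2 fold change -2.07, limma adjusted p 2.59e-09) and from 698 ± 147 to 166 ± 38.1 (-2.08, 4.33e-08). *Ccn2*, connective tissue growth factor, rose from 996 ± 53.2 to 2904 ± 85.1 (1.54, 3.76e-12), and *Dusp1*, a phosphatase that switches off Jun kinase and p38 and is a known receptor target, from 438 ± 39.1 to 1124 ± 43.1 (1.36, 6.19e-10). The difference between the lists was not tested. *Nr3c1*, the glucocorticoid receptor gene, was itself lower, at 2912 ± 12.2 and 2150 ± 103 normalized counts (-0.44, 2.71e-06).

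**Figure D5:**
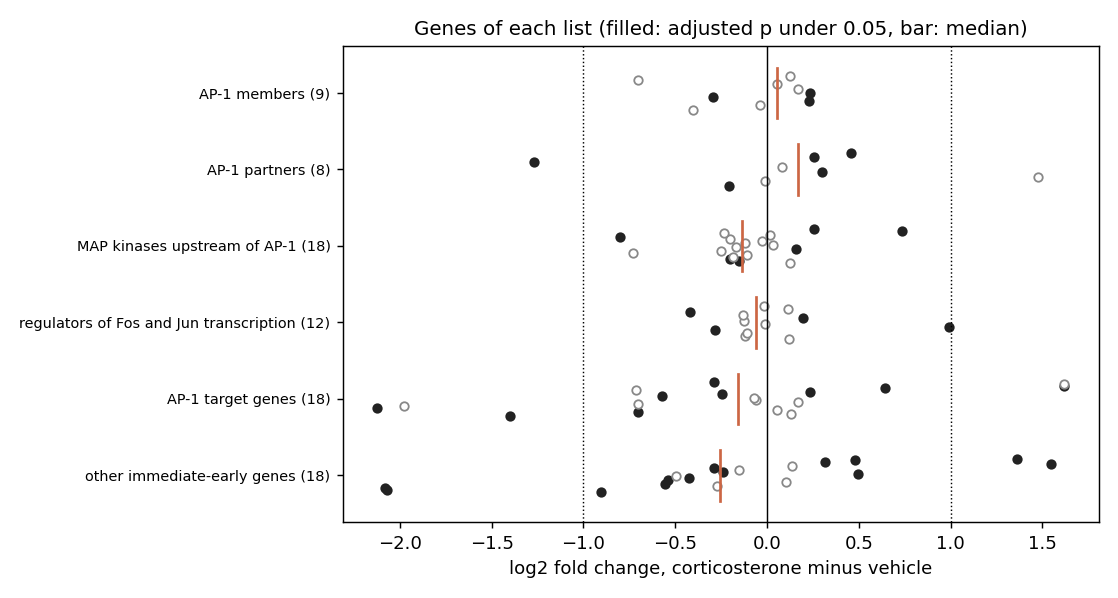
Log2 fold change of corticosterone against vehicle (x axis) for 9 AP-1 members and for the genes with a row in 5 related lists, with the number of genes in brackets. Filled points have a limma adjusted p under 0.05, orange bars are list medians and dotted lines mark -1 and 1. AP-1 members lie between -0.70 and 0.24, whereas the other immediate-early genes reach from -2.08 to 1.54.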

How the data were processed

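The deposited table holds 1 signal value for each gene in each library, under the name FPKM. Within a library every value is a whole multiple of a single step that does not vary with gene length, so the authors had divided read counts by 1 size factor, and whole reads were recovered for 100% of values (tolerance 0.1 of a read). Reads were mapped to mm10 per the labels. Aligner, counter and use of the strand are not given in the sources used here. All 24016 genes were fitted with limma 3.58.1 (variance trend, R 4.3.3) on log2(value + 0.1), where a fold change understates that of low genes, with Benjamini-Hochberg adjustment. Calls were an adjusted p under 0.05, with or without an absolute log2 fold change over 1. The design, which assumed FPKM, was kept. edgeR 4.0.16 and DESeq2 1.42.0 on the recovered reads were alternatives. Fits were tested on simulated data. Members and lists were chosen with earlier results of these data known. Genes named beside the members are list genes past the threshold or, in a list with none, the 3 with the smallest adjusted p, and those most like *Fosl2*. *Mapk8*, *Mapk9*, *Srf*, *Mmp13*, *Mafk*, *Mafg*, *Jdp2* and the genes on the other strand were named after their values were seen. Some list genes that entered the fits and counts are not reported here one by one. Coordinates, lengths and 31-base words came from GENCODE (GRCm38). Same-treatment libraries differed by more than sampling noise (chi-square per degree of freedom of at least 3.38), so none was the same library sequenced again. Whether they came from separate cultures cannot be told from this. The floor of 3 reads covers counting error only, and the intervals and p-values of limma the spread between these libraries.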

Additional observations from a re-analysis of the deposited data

How the results depend on the processing

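*Fosl2* stayed lower and *Jun* and *Fosl1* higher in all 17 other settings and with each library left out, and only the calls changed. Log2 fold changes over the settings ran from -0.41 to -0.25 for *Fosl2*, from 0.19 to 0.29 for *Jun* and from 0.19 to 0.30 for *Fosl1*. Members higher by the adjusted p, 2 in the report, were 1 with a pseudocount of 0.01, with scaling to the same total and with DESeq2 and the replicate block, in each of which *Fosl1* lost its call (adjusted p 0.0546, 0.0863 and 0.12). They were 3 with a robust prior variance, where *Junb* was added, 4 with the replicate block and a GC and length correction, where *Junb* and *Jund* were added, and 0 without a variance trend and when tested against a log2 fold change of 1. Members lower, 1 in the report, were 2 with a robust prior variance and with edgeR and the replicate block, where *Fos* was added (adjusted p 0.016 and 0.0205), and 0 without a variance trend (*Fosl2* 0.189, *Jun* 0.179) and in the test against a log2 fold change of 1. *Fosb* changed sign to 0.028 with the replicate block and the GC and length correction and, with libraries left out in turn, ran from -0.20 to 0.12, positive without vehicle replicate 2. The cause was not tested.

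Over all genes, lower calls by the adjusted p were 1288 with the replicate block and the GC and length correction, and 1254, with 198 past the fold, with DESeq2 and the replicate block. Without a variance trend 873 genes were higher and 760 lower, and the test against a log2 fold change of 1 left 100 higher and 47 lower. Correlations of same-numbered deviations over 10558 genes were 0.067, 0.088 and 0.016, so no strong pairing by replicate number was seen. They cannot tell whether same-numbered cultures were handled together. In limma the replicate block gave the same 2 higher and 1 lower member. With libraries left out in turn, the members called were 0 to 3 higher and 0 to 1 lower, and of all genes 1148 to 1611 were lower, 204 to 321 of them past the fold. The share of *Fosl2* was 22.2% and 17.2% (vehicle, corticosterone) with the union of exons and 52.1% and 44.0% without a length correction, and that of *Jun* 27.5% and 30.8% with the union and 21.4% with vehicle without a length correction. Scaling moved the median of the genes with a mean of at least 10 by less than 0.1 on the log2 scale.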
